A study of Mus musculus with 3 samples.

Results

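Sodium-proton exchangers and their scaffold proteins were examined in the choroid plexus epithelium (CPE), the secretory cell layer of the choroid plexus that produces the cerebrospinal fluid. The genes were 6 exchangers, *Slc9a2*, *Slc9a3*, *Slc9a4*, *Slc9a7*, *Slc9a8* and *Slc9a9*, and 2 scaffold genes, *Slc9a3r1* and *Slc9a3r2*. They were chosen by name, and every probe carrying one of these names was kept, which gave 15 probes of 8 genes among 41174 probes with 27845 gene or transcript names on the array. The CPE came from the lateral ventricles of 3 healthy, untreated female C57BL/6 mice aged 18 to 21 weeks. It was cut by laser from frozen brain sections, and its amplified RNA was labelled red with Cy5. Each of the 3 samples was hybridised to its own 2-colour Agilent array, with the same reference RNA in the second channel, labelled green with Cy3. This reference was made from choroid and retinal pigment epithelium (RPE) of wild type C57BL/6 mice. The dyes were not swapped, so a preference of a probe for 1 dye remains in its ratio. The samples were dissected tissue, so fewer cells of a type and less RNA per cell cannot be told apart.

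Sodium-proton exchangers of the SLC9 family move sodium into a cell or organelle lumen in exchange for protons, and so set intracellular pH, cell volume and, in epithelia, transport of salt and water. *Slc9a2*, *Slc9a3* and *Slc9a4* encode exchangers of the plasma membrane in kidney and gut epithelia, whereas the products of *Slc9a7*, *Slc9a8* and *Slc9a9* work mostly in the Golgi apparatus and endosomes. *Slc9a3r1* encodes NHERF1, also called EBP50, and *Slc9a3r2* encodes NHERF2. Both are PDZ domain scaffolds that tie exchangers and other membrane proteins to ezrin at the apical membrane.

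The start regions of the scaffold genes, whose probes ranked highest in CPE among the members, are shown beside that of *Slc9a3*, the exchanger after which they are named and whose probes were dim. The sequences are from RefSeq on build GRCm38.p6 and hold 250 bases before and 50 after an annotated start, written on the strand of the gene. Capitals mark the GC box, GGGCGG on either strand.
Slc9a3r1 (chr11:115163091-115163390, plus strand): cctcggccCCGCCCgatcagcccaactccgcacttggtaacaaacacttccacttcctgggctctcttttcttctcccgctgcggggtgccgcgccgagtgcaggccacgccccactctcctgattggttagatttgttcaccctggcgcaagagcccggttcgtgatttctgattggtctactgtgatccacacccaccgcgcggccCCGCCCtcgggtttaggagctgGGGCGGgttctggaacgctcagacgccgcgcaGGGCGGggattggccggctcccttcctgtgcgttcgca
Slc9a3r2 (chr17:24650256-24650555, minus strand): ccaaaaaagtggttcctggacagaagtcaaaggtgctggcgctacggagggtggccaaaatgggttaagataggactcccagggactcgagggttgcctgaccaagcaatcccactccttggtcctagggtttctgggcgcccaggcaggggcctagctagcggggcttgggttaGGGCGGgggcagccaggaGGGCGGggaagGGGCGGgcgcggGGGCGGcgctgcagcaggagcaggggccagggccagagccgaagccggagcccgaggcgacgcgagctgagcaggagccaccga
Slc9a3 (chr13:74121163-74121462, plus strand): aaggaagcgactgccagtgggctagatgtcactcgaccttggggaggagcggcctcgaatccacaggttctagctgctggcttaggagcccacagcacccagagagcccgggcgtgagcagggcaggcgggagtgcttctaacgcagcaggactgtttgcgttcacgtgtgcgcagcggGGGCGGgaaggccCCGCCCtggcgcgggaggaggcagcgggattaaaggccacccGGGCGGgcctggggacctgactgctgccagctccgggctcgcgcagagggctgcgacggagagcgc
The *Slc9a3r1* region held 4 GC boxes and 27 CpG dinucleotides, and the *Slc9a3r2* region 4 and 19. The *Slc9a3* region held 3 GC boxes and 25 CpG dinucleotides. A GC box was found in 35.7% of the 32851 start regions in the RefSeq table, which had a median of 7 CpG dinucleotides. The second annotated start of *Slc9a3r2* had no GC box and 4 CpG dinucleotides, *Slc9a7* had 3 and 24, *Slc9a8* had 2 and 22, and *Slc9a9* had none and 6. The bicoid-type homeodomain core TAATCC and the E-box CACGTG, each searched on both strands and counted apart from the other motifs, lie in 7.06% and 7.15% of all start regions. Among the members, each had 1 match, in the *Slc9a3* region. The table was searched for all members, and 7 regions of 6 genes matched. *Slc9a2* and *Slc9a4* did not match.

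The arrays differed in brightness. A probe was well above background, by the flag of the scanner software, in the CPE channel for 46.0% to 85.6% of all probes and in the reference channel for 68.6% to 84.2%, with the highest share on the array of mouse 3 in both channels. The background surface fitted by the software had a median intensity of 363 in the CPE channel of mouse 3, against 81.2 and 82.6 in mice 1 and 2. Arrays 1 and 3 were scanned on 1 day and array 2 on another, and each lay on its own slide. The 11 CPE marker genes found on the array all ranked above the 97th percentile of CPE signal, and 10 of them were higher in CPE than in the reference by at least 2-fold with an adjusted p below 0.05 in limma. By the same limits, 10 of 11 RPE and melanocyte markers and 9 of 9 photoreceptor markers were lower in CPE.

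The first question was how strongly the CPE expresses each gene. Following the study's methods, the log2 red intensity was normalised between arrays and averaged over mice, and probes were ranked over the whole array. The classes were high (above the 90th percentile), moderate (50th to 90th), low (10th to 50th) and very low. A percentile places a probe on the array and does not order transcripts by abundance, because probes hybridise with different strength. Of the 15 probes, 1 was high, 3 were moderate, 10 were low and 1 was very low. The 2 scaffold genes took the top places, and of the 13 exchanger probes only 2, both of *Slc9a8*, lay above the 50th percentile.

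The *Slc9a3r1* probe (chromosome 11, 114996909 to 114996968, mm8) had log2 CPE levels of 11.23, 10.70 and 11.08 in mice 1, 2 and 3, with a mean of 11.00 ± 0.27 (SD, n = 3). It ranked at percentile 91.2, with the mice at 91.5, 90.2 and 91.4. It was therefore in the high class in every mouse, by a narrow margin. It left that class when 1 probe per gene was ranked, at 88.8, and when only probes well above background in CPE were ranked, at 80.5.

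The *Slc9a3r2* probe (chromosome 17, 24367427 to 24367486, mm8) had log2 CPE levels of 10.31, 9.83 and 9.65 in mice 1, 2 and 3, with a mean of 9.93 ± 0.34 (SD, n = 3). It ranked at percentile 83.3, with the mice at 84.7, 83.8 and 77.6. It was moderate in every mouse, and mouse 3 was the low sample. On every array both scaffold probes were well above background in red and in green, and none of these spots was saturated.

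*Slc9a8*, an exchanger of the Golgi apparatus that also serves the apical membrane of kidney tubules, was measured by 4 probes over 51.5 kb of chromosome 2. The most 3′ of them (167167913 to 167167972, mm8) was the highest-ranked exchanger probe, with log2 CPE levels of 9.16, 8.76 and 8.26 in mice 1, 2 and 3 and a mean of 8.73 ± 0.45 (SD, n = 3). It ranked at percentile 69.7, and was the only exchanger probe well above background in the CPE channel on all 3 arrays. The next probe upstream ranked at 54.6, but its mice lay at 43.6, 41.8 and 70.1, and it fell to 42.0 without mouse 3. The remaining *Slc9a8* probes ranked at 40.9 and 8.81, the latter being well above background on no array. Probes of the same gene therefore spanned every class but the high one.

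*Slc9a7* and *Slc9a9*, whose products act in the trans-Golgi network and in endosomes, were in the low class. The most 3′ *Slc9a7* probe (chromosome X, 19262715 to 19262774, mm8) had log2 CPE levels of 7.36, 7.40 and 7.72 in mice 1, 2 and 3 and ranked at percentile 37.4, and the other probe ranked at 22.5. The single *Slc9a9* probe (chromosome 9, 95038198 to 95038257, mm8) had levels of 7.34, 7.02 and 7.70 and ranked at 28.3. In the CPE channel, the 3′ *Slc9a7* probe and the *Slc9a9* probe were well above background in mice 1 and 3 but not in mouse 2. The log2 level of each was highest in mouse 3, whose array had the brightest background, but the ranks within the arrays differed from this. The 3′ *Slc9a7* probe ranked lowest in mouse 3, at percentile 26.9, against 42.2 in mouse 1 and a higher rank still in mouse 2. The *Slc9a9* probe ranked at 41.5, 21.3 and 25.5 in mice 1, 2 and 3. The levels of these dim probes therefore do not order the mice.

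*Slc9a2*, *Slc9a3* and *Slc9a4*, the plasma membrane exchangers, were also low, with 2 probes each. The *Slc9a2* probes ranked at percentiles 16.2 and 39.3, those of *Slc9a4* at 15.6 and 35.6, and those of *Slc9a3*, the main sodium-absorbing exchanger of kidney and gut, at 16.4 and 10.1. None of these probes was well above background in mouse 2. The higher-ranked *Slc9a2* probe had log2 levels of 7.37, 7.40 and 7.82 in mice 1, 2 and 3, and was the only 1 of the 6 that was well above background in mouse 1. The more 3′ *Slc9a3* probe had levels of 6.84, 7.12 and 7.35 and was well above background on no array. The other probes of these genes were all well above background in mouse 3, whose array had the brightest background. Their red intensities there were 1.27 to 2.11 times the fitted background surface. Where a probe was not well above background, no signal was detectable at this brightness, which does not say that the transcript was absent.

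**Figure D1:**
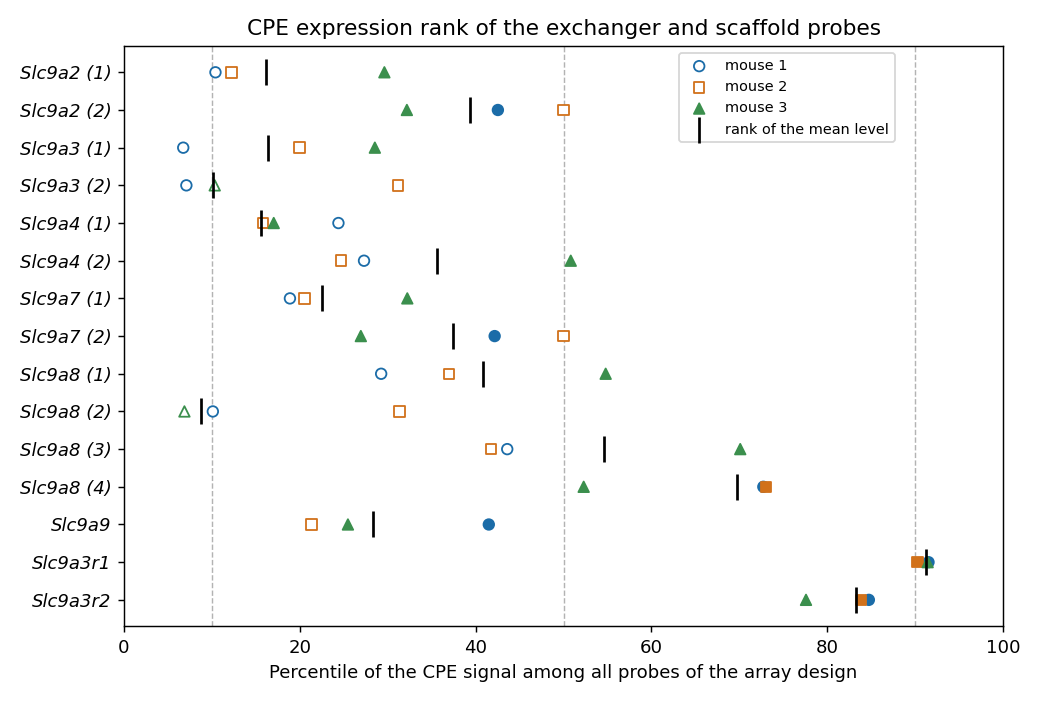
Percentile of the CPE signal among all probes (horizontal axis, 0 to 100) for the 15 probes, numbered from the 5′ end where a gene has several. Symbols are the 3 mice, filled where the probe was well above background in the CPE channel, the black bar is the rank of the mean level (not the mean of the ranks), and dashed lines are the class limits at 10, 50 and 90. The 2 scaffold probes lie at 91.2 and 83.3 with filled symbols in every mouse, and most exchanger probes lie below 50 with open symbols in mice 1 and 2.

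The dimness of the exchangers was examined as raw signal over background. Of 13 exchanger probes, 4 were well above background in the CPE channel of mouse 1, 1 in mouse 2 and 11 in mouse 3, and the counts for the reference channel were 4, 3 and 11. The array of mouse 3 thus gave most of the detections, and 6 probes passed in both channels on that array and in neither channel on the others. In mouse 2, the red intensity was 3.88 times the fitted background surface for the 3′ *Slc9a8* probe, and 1.35 and 1.40 times for the 3′ probes of *Slc9a2* and *Slc9a7*. The scaffold probes had values of 33.1, 17.0 and 7.25 (*Slc9a3r1*) and 15.6, 8.25 and 3.85 (*Slc9a3r2*) in mice 1, 2 and 3. They were lowest in mouse 3, although their raw red intensities there, 2382 and 1308, were close to those of mouse 1, 2597 and 1226.

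**Figure D2:**
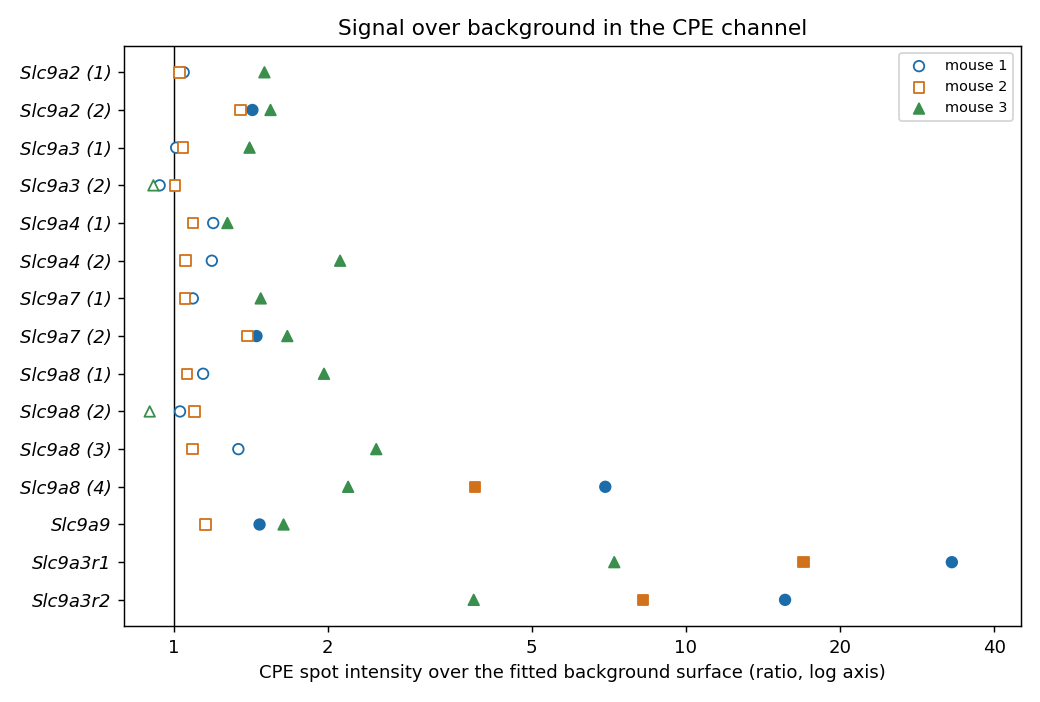
Red (CPE) spot intensity divided by the background surface fitted at the spot (horizontal log axis, 1 is the background) for the 15 probes in each mouse. Filled symbols are well above background by the scanner flag. The scaffold probes lie between 3.85 and 33.1, whereas the exchanger probes other than the last *Slc9a8* probe stay between 0.898 and 2.49.

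The ranks of probes of the same gene were then set beside their position along the gene. In 4 of the 5 exchanger genes with several probes, the most 3′ probe ranked highest in CPE, and in the reference it did so in all 5. The exception in CPE was *Slc9a3*. Most of these probes, in genes with and without the pattern, were near background in mice 1 and 2, and the second *Slc9a8* probe, at 8.81, ranked below the first, at 40.9. The 3′ probe ranked highest in all 3 mice for *Slc9a2* and *Slc9a4*, and in 2 of 3 mice for *Slc9a3*, *Slc9a7* and *Slc9a8*. Several probes cover an interval longer than 60 bases in the coordinates. The longest were 3998 and 4316 bases, for the 5′ and 3′ *Slc9a4* probes. The 5′ *Slc9a2* probe covered 1985 bases, the third *Slc9a8* probe 1891 and the 5′ *Slc9a3* probe 607. The part of probe position in the ranks was not tested.

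**Figure D3:**
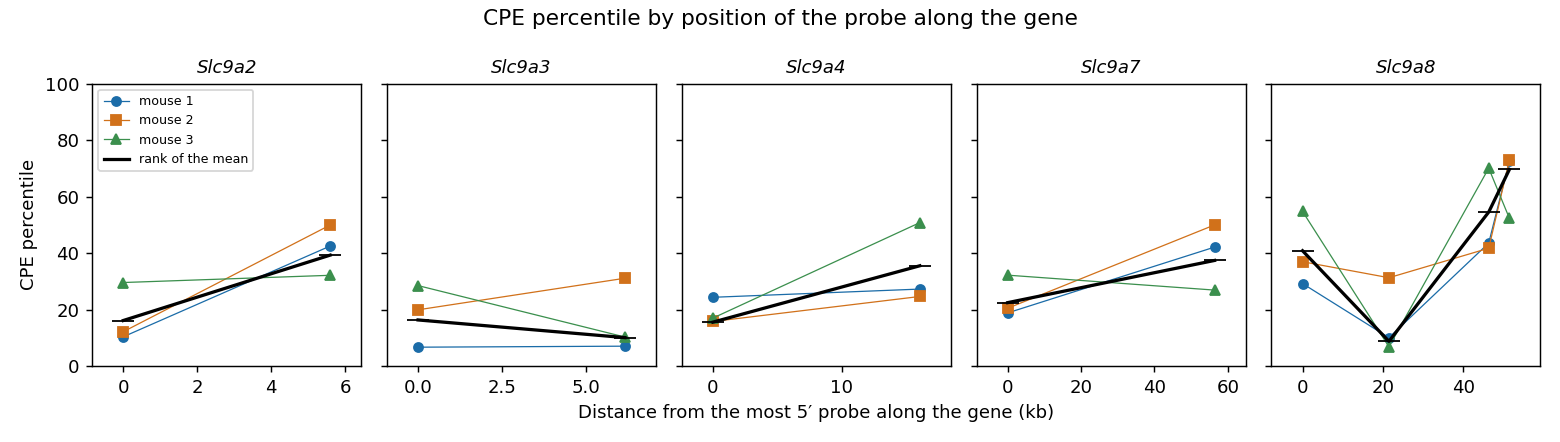
CPE percentile (vertical axis) against the distance of the probe from the most 5′ probe of the gene (horizontal axis, kb) for the 5 exchanger genes with several probes. Coloured symbols are the 3 mice and the black line joins the ranks of the mean levels, which are higher at the last than at the first probe in *Slc9a2* (16.2 to 39.3), *Slc9a4* and *Slc9a7*, and not in *Slc9a3* (16.4 to 10.1). In *Slc9a8* the line goes from 40.9 down to 8.81 and then up to 54.6 and 69.7.

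The second question was whether expression differed between the CPE and the reference. The ratio of red over green was taken after background correction and loess normalisation and tested against 0 with limma. The threshold was an adjusted p under 0.05 together with a 2-fold or larger change in either direction. Only probes that 1 channel or both had well above background on every array were tested, which left 5 of the 15, namely the 2 scaffold probes, the 3′ probes of *Slc9a7* and *Slc9a8*, and the *Slc9a9* probe. *Slc9a2*, *Slc9a3* and *Slc9a4* had no tested probe. Of the 5, 1 was past the threshold, *Slc9a3r2*, which was higher in CPE. Among all 25846 tested probes, 7.09% were past it and higher and 10.2% past it and lower, 17.3% in all. The share of members, 20% of 5, lay near this background. The median log2 ratio was 0.25 over the 5 probes and −0.041 over all tested probes.

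For *Slc9a3r2*, the log2 ratios of CPE over reference were 1.75, 1.46 and 0.88 in mice 1, 2 and 3. The ratio was above 0 in every mouse and lowest in mouse 3. The mean ratio was 1.36 (SE 0.20, 95% interval 0.90 to 1.82), a 2.57-fold higher signal in CPE, with a limma adjusted p of 0.00159. The reference itself placed this probe at percentile 63.6. The ratio stayed between 1.17 and 1.79 and past the threshold with each mouse left out and under each other correction, normalisation and filter tried, but a limma test against a 2-fold change in place of 0 did not call it (adjusted p 0.552).

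For *Slc9a3r1*, the log2 ratios were 0.92, 0.69 and 0.50 in mice 1, 2 and 3, again above 0 in every mouse. The mean was 0.70 (SE 0.16, 95% interval 0.33 to 1.08), or 1.63-fold, with a limma adjusted p of 0.0114, so that the probe passed the p-value but not the 2-fold limit. Median centring of the arrays in place of loess raised the median of all tested probes from −0.041 to 0.091 and the ratio of *Slc9a3r1* to 1.29 (adjusted p 0.0162), which is past the threshold. Relative to the median of all tested probes, its ratio was 0.74 with loess and 1.19 with median centring, and that of *Slc9a3r2* was 1.40 and 1.69. Of all calls, 41.1% were higher in CPE with loess and 67.0% with median centring. Without mouse 1, the ratio of *Slc9a3r1* was 0.59 with an adjusted p of 0.118.

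The 3 tested exchanger probes were not past the threshold. The 3′ *Slc9a8* probe had log2 ratios of −0.13, 0.37 and −0.58 in mice 1, 2 and 3, with a mean of −0.11 (SE 0.20, 95% interval −0.59 to 0.36, limma adjusted p 0.699). The mice disagreed in sign, and the sign of the mean turned with median centring and without mouse 3. The 3′ *Slc9a7* probe had ratios of 0.31, 0.59 and −0.14, with a mean of 0.25 (SE 0.18, 95% interval −0.18 to 0.68, adjusted p 0.319), which became 0.084 without mouse 2, 0.45 without mouse 3, 0.036 with median centring and 0.073 with the scanner's background surface. The *Slc9a9* probe had ratios of 0.68, 0.19 and −0.33, with a mean of 0.18 (SE 0.21, 95% interval −0.31 to 0.67, adjusted p 0.530), and its sign turned without mouse 1. These intervals lie within a 2-fold change in either direction under loess normalisation. They are no evidence of equal expression, which was not tested. The mice of the *Slc9a8* probe ran from −0.58 to 0.37. The *Slc9a7* and *Slc9a9* probes were both near background in CPE. Their red intensities in mouse 2 were 1.40 and 1.15 times the fitted background surface. The offset of 50 in the background correction also draws ratios of dim spots towards 0. In all 5 tested probes mouse 3 had the lowest ratio, as it did for 48.5% of all tested probes.

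**Figure D4:**
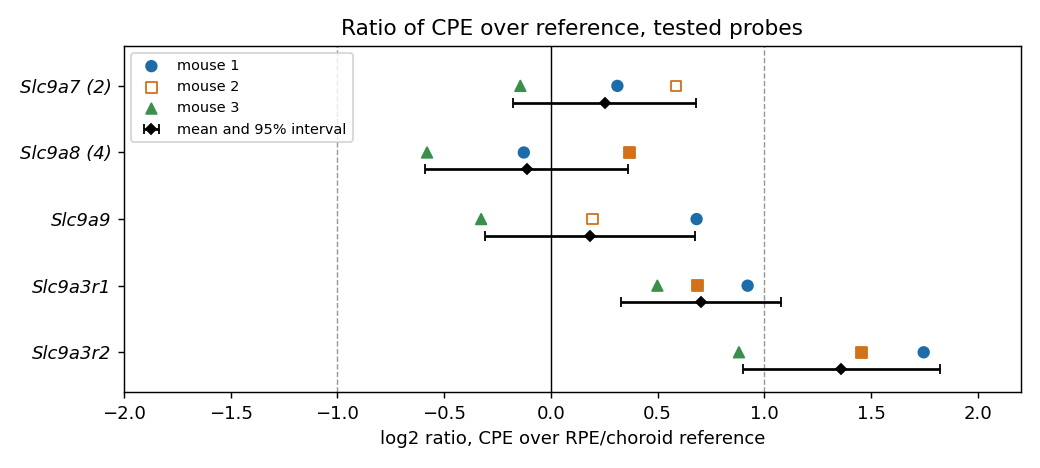
Log2 ratio of CPE over the RPE and choroid reference (horizontal axis) for the 5 tested probes. Coloured symbols are the 3 mice, filled where the probe was well above background in both channels, diamonds are means with 95% intervals from the limma fit, and dashed lines mark a 2-fold change. Only the *Slc9a3r2* mean, at 1.36, lies beyond a 2-fold change, and in the exchangers the mice fall on both sides of 0.

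**Figure D5:**
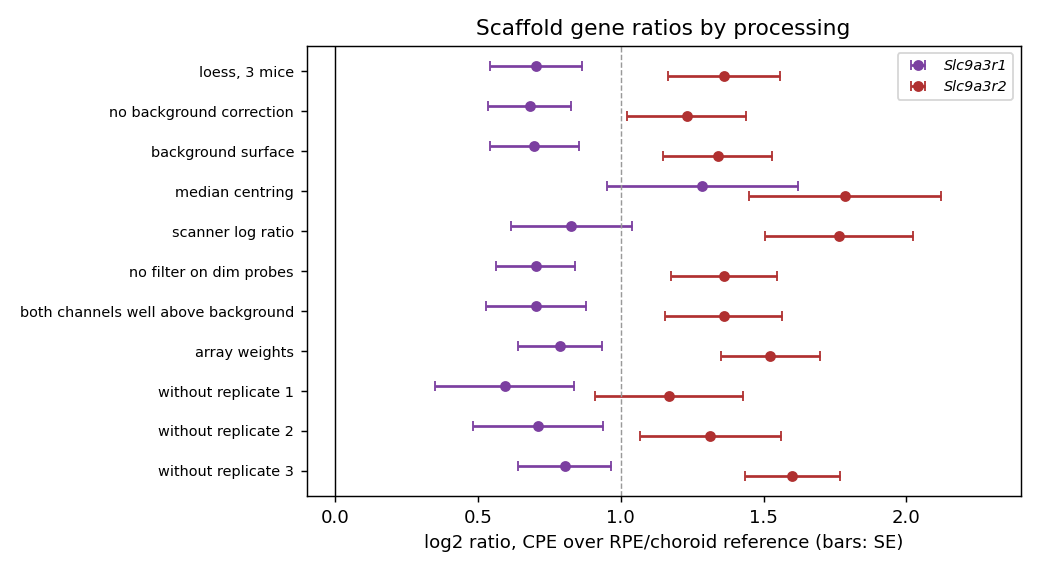
Mean log2 ratio of CPE over reference (horizontal axis) of the scaffold genes under each processing alternative, with bars of 1 SE and a dashed line at a 2-fold change. The means of *Slc9a3r2* stay to the right of the line, from 1.17 to 1.79, and that of *Slc9a3r1* crosses it only with median centring, at 1.29.

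Other genes of the same transport systems were taken from lists, with the brightest probe for each gene. Their counts stand beside the shares over all tested probes, 7.09% higher and 10.2% lower in CPE, and the lists were not tested against these shares or each other. Of 3 further exchanger genes on the array, 2 were tested and none was past the threshold, and their probes ranked between percentiles 2.52 and 83.5, so none was in the high class. Among 19 regulators and binding partners of exchangers and scaffolds, 15 were tested, 1 was higher in CPE and 1 was lower, with a median log2 ratio of 0.014. The higher gene was *Tesc*, which encodes the calcium-binding exchanger partner tescalcin, at 2.05 (SE 0.24, limma adjusted p 0.000636). The lower gene was *Dpp4*, a membrane peptidase, at −1.51 (SE 0.35, adjusted p 0.0118).

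The list of other sodium and bicarbonate carriers also held carbonic anhydrases, which are enzymes. Of its 17 tested genes, 8 were higher in CPE and 2 were lower, and the median log2 ratio was 0.52. The largest were the bicarbonate carriers *Slc4a10* at 4.18 and *Slc4a2* at 2.89, the sodium-potassium-chloride cotransporter *Slc12a2* at 2.35, the sodium pump subunit *Atp1b1* at 2.27 and the carbonic anhydrase *Car2* at 1.71, and the sodium bicarbonate cotransporter *Slc4a4* was lower, at −2.56. Of the vacuolar proton pump and its accessory subunits, which also move protons across membranes, 20 genes were tested, 4 were higher and 2 were lower, with a median of 0.095. Higher were *Atp6v0b* at 2.76, *Atp6v0a1* at 2.19, *Atp6ap1* at 1.30 and *Atp6ap2* at 1.01. Lower were *Atp6v1c1* at −1.21 and *Atp6v0d2*, which was not well above background in CPE on any array and was at least 4.86-fold higher in the reference in the mean of 3 arrays (adjusted p 5.60e-05). For this bound, the dim CPE signal was raised on each array to the lowest value of any probe well above background before averaging. The adjusted p is that of the ratio before this step. The bound applies to the mean alone and leaves out the error of the ratio (SE 0.16 on the log2 scale), so a smaller fold is possible. It is also open to dye bias.

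The scaffold genes are also used by other cell types, so markers of those cells are given with their summed level in each channel. A summed level is the log2 of the sum of the linear levels of the listed markers, so the brightest marker weighs most. These levels were taken after background correction, loess and normalisation between arrays. The 6 endothelial markers were all well above background in CPE, at percentiles from 68.4 to 97.1, and 1 of them, *Plvap*, was past the threshold and higher in CPE, at 1.21. Their summed level was 13.00 to 13.54 in CPE and 13.21 to 13.39 in the reference. All 3 listed ependymal markers on the array, *Foxj1*, *Tekt1* and *Dynlrb2*, were higher in CPE, with summed levels of 13.45 to 14.15 against 9.73 to 10.23. They ranked at percentiles from 95.2 to 98.4 in CPE. Whether ependymal cells or the CPE itself gave this signal was not tested. Of 6 stromal markers, 5 were lower in CPE, with summed levels of 14.19 to 14.37 against 16.83 to 17.05. Lower in CPE were also 3 of 6 macrophage, 5 of 7 neuronal, 2 of 6 astrocyte and 3 of 3 red blood cell markers, whereas 1 astrocyte and 1 of 4 tested oligodendrocyte markers were higher. The part of these cells in the ratios of *Slc9a3r1* and *Slc9a3r2* was not tested.

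Genes with a pattern most like the scaffold genes were found by the root mean square difference over 6 values, the 3 log2 ratios and the 3 log2 CPE levels, among 14441 probes of named genes whose red and green signals alike were well above background on every array. Nearest to *Slc9a3r1* were *Prr14*, *Tmem97* and *Trim3*, at differences of 0.074, 0.086 and 0.087 on the log2 scale. Nearest to *Slc9a3r2* were *Scly*, which encodes selenocysteine lyase, *Hmox1*, which encodes a heme oxygenase, and *Gga1*, which encodes a Golgi adaptor protein, at 0.14, 0.14 and 0.15. With 3 arrays, these are descriptions of likeness in level and ratio.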

How the data were processed

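The study hybridised CPE RNA of 3 mice (red) and 1 RPE and choroid reference RNA (green) to Agilent whole mouse genome arrays. The authors made the scanner tables with Agilent Feature Extraction 9.5.3.1, as the submitters' processing notes name it, which hold spot and background intensities on a linear scale, flags, and the log10 ratio of processed red over green; probe coordinates are on mm8. The deposited table of the series holds log2 levels that the authors normalised between arrays with limma in R 2.14.0 (Aquantile). Its column medians were 6.86, 6.82 and 6.85, and its rank correlation over spots was 0.993 to 0.996 with red and 0.839 to 0.925 with green intensity. It was therefore read as the CPE level, and it served only as an alternative ranking.

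The scanner values were analysed in R 4.3.3 with limma 3.58.1. Control spots and spots marked as outliers, 26 to 29 per array, were left out and spots of 1 probe averaged. Percentiles used log2 red intensity after Aquantile without background correction. Ratios used normexp (offset 50), loess, an intercept model with eBayes and Benjamini-Hochberg adjustment over all tested probes. The reference was 1 RNA, so its own spread is not in the error, and 3 arrays limit the precision. Alternatives were other background corrections, median centring, the scanner's log ratio, other filters on dim probes, array weights, a test against a 2-fold change, other rankings and leaving out each mouse. The code was tested on simulated data. All member genes were named with every probe. From the lists, genes past the threshold were named, up to 6 a list by size. Genes and lists were chosen with earlier results of these data known.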

Additional observations from a re-analysis of the deposited data

How the results depend on the processing

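The 4462 probes past the threshold became 6755 with the scanner's log ratio and 1412 with the limma test against a 2-fold change; the cause of the first was not tested, and the second follows from its stricter null. With a mouse left out there were 4024 to 5360. Of the exchanger and scaffold probes, 1 was past the threshold, 2 were with median centring and 0 with the test against a 2-fold change, and 1 with each mouse left out. The ratio of the 3′ *Slc9a8* probe, −0.11, became 0.22 with median centring and ran from −0.35 to 0.12 with a mouse left out. That of *Slc9a9*, 0.18, ran from −0.066 without mouse 1 to 0.44 without mouse 3. Over the alternatives other than the test against a 2-fold change, the ratios of tested member probes kept sign and side of the threshold 44 times, changed sign in the 3 instances above, and passed the threshold 1 time, in *Slc9a3r1* with median centring. Without the filter on dim probes all 15 probes were tested, and *Slc9a3r2* alone was called. The probes at or above the 50th percentile numbered 4, and 2 when only probes well above background in CPE were ranked, which left 3 of the 15 by construction, with *Slc9a3r1* at 80.5 and *Slc9a3r2* at 62.8. They numbered 3 to 4 with a mouse left out. The deposited levels placed *Slc9a3r1* at 91.5 and *Slc9a3r2* at 83.7. Without mouse 2, the array scanned on another day, the ratios of *Slc9a3r1* and *Slc9a3r2* were 0.71 and 1.31. The ratios already pair CPE and reference within each array. No paired analysis was possible because the 3 mice form 1 group of samples, so that there is no second group to pair by mouse. Signal over background limits what can be said of *Slc9a2*, *Slc9a3* and *Slc9a4*.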
